A study of Saccharomyces cerevisiae with 60 samples.

Results

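The comparison set yeast lacking the stress regulators Msn2 and Msn4 at 42 °C for 30 min against the same strain at 37 °C for 30 min. Its members are the 3 libraries labelled msn2Δ/msn4Δ, 42 °C and 30 min and the 3 labelled msn2Δ/msn4Δ, 37 °C and 30 min, which are 6 of the 60 RNA-sequencing libraries of the series. In these cells, 30 min at 42 °C differed from 30 min at 37 °C by a large set of protein-folding genes that stood higher and by nearly all ribosomal protein genes, which stood lower. Genes of the general stress programme, which depends on Msn2 and Msn4 in wild-type yeast, were higher for 10 of 40 and lower for 10. That is near the shares of all genes, 21.4% higher and 20.5% lower.

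The series covers 4 strain states of Saccharomyces cerevisiae under 5 conditions, with 3 libraries each. All strains are W303 with an anchor-away Hsf1, a form of the heat shock factor that leaves the nucleus once rapamycin is added. The cultures of both groups compared here grew in YPD-A, a rich glucose medium, at 25 °C, carried the msn2 and msn4 deletions, kept their Hsf1 because they received DMSO without rapamycin, and stood 45 min at 25 °C with DMSO before the shift to 42 °C or 37 °C. The other groups used were the same strain and medium treatment after 10 min at 42 °C and 37 °C and at 25 °C without a shift, and 2 further strain states at 42 °C and 37 °C for 30 min. One is called double loss here: the msn2Δ/msn4Δ cells that received rapamycin for 45 min and so lost Hsf1 from the nucleus as well, a label the submitters write as -hsf1/msn2Δ/msn4Δ. The other is labelled wildtype: the Hsf1 anchor-away strain with intact MSN2 and MSN4 and DMSO alone. The anchor-away strain is itself engineered, rapamycin was not given to the DMSO cultures, and the labels name no number of clones for the deletion strain.

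Heat unfolds proteins and sets off a pair of transcription programmes in yeast. Hsf1, a trimeric factor released from the Hsp70 chaperone when unfolded proteins draw that chaperone away, binds heat shock elements made of inverted GAA units and drives chaperone genes. Msn2 and Msn4, related zinc finger factors that enter the nucleus when protein kinase A activity falls, bind the stress response element AGGGG and drive genes for carbohydrate stores, antioxidant enzymes and small stress proteins. Growing cells spend much of their messenger RNA on ribosomal proteins, and heat is known to lower those transcripts together with the ribosome assembly genes.

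The upstream DNA of 5 genes on which the results turn is printed here to show how these elements lie in strongly and weakly responding genes. Each run is 300 bases long, starts 400 bases before the start codon, is read 5′ to 3′ on the gene's strand and comes from the RefSeq R64 genome. Capitals mark every match, on either strand, to the stress response element, AGGGG, or to the heat shock element searched, which was the units GAA, TTC and GAA in this order with any 2 bases between neighbouring units. HSP42 encodes a small heat shock protein (chrIV:806221-806520, plus strand), SIS1 an Hsp40 co-chaperone (chrXIV:619666-619965, minus strand), SSA4 a heat-inducible Hsp70 (chrV:364189-364488, plus strand), HSP30 a plasma membrane heat shock protein (chrIII:157208-157507, minus strand) and CTT1 the cytosolic catalase (chrVII:654234-654533, plus strand).
HSP42: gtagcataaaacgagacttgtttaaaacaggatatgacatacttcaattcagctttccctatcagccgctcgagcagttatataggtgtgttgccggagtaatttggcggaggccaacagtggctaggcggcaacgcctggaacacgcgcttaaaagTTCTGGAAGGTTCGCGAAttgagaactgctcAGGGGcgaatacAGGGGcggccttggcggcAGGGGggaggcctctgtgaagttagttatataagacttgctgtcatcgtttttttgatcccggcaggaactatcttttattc
SIS1: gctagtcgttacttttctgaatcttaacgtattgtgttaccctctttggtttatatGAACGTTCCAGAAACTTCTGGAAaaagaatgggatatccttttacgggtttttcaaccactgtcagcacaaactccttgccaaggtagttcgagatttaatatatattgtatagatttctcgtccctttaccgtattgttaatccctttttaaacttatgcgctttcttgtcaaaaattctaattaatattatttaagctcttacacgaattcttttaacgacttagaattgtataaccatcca
SSA4: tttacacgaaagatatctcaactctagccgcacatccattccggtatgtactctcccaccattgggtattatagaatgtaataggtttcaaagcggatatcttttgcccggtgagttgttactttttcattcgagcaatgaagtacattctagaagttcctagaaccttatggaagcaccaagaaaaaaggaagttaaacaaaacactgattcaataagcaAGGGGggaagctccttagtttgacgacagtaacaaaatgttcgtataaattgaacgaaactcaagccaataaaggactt
HSP30: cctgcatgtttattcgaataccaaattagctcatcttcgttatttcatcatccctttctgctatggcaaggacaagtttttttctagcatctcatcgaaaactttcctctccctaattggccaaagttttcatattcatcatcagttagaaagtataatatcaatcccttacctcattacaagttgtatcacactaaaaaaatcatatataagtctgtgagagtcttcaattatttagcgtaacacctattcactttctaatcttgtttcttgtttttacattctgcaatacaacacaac
CTT1: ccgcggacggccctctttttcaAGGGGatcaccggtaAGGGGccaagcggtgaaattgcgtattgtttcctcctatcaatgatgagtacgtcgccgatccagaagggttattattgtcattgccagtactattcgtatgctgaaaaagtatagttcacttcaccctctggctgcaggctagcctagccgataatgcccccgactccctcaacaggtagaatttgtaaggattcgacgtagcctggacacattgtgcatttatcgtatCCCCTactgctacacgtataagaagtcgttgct
The window of HSP42 held 2 heat shock element matches, which overlap, and 3 stress element matches. That of SIS1 held 3 overlapping heat shock element matches and no stress element. SSA4 held 1 stress element match and none to the heat shock element in these letters, HSP30 held neither, and CTT1 held 3 stress elements. Over the windows of all 6067 tested genes with a placed start codon, 1.05% held the heat shock element and 23.9% the stress element. Among 18 chaperone genes listed as core Hsf1 targets, 10 windows (55.6%) held the heat shock element, and among 40 genes of the general stress list 35 windows (87.5%) held the stress element. Both lists were chosen with earlier results of these data known. A match describes letters in this window and is no evidence of binding.

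The 6 libraries held 4531433 to 7150195 counted reads and detected 6029 to 6289 of 7126 annotated features. Counts below are given as CPM, read counts scaled to library size multiplied by edgeR's TMM factor. These factors ran from 0.798 to 1.322 in the 6 libraries. A CPM level is therefore a relative level and not a share of a library's counts. It also does not say how many molecules a cell held. In bulk samples fewer cells and less RNA per cell cannot be told apart. A floor of 3 counts in a library equals 0.342 to 0.65 CPM on this scale and covers counting error only. MSN2 and MSN4 reads were nearly missing from the 6 libraries, with at most 0.168 CPM, against 99.3 to 432.8 CPM for MSN2 and 88.0 to 708.1 CPM for MSN4 in the strains that carry them. Log-scale profiles correlated at 0.964 to 0.985 with libraries of the own group and at 0.759 to 0.799 with libraries of the other temperature. The labels do not say that replicates came from separate cultures, so the spread behind the p-values may be technical. For genes that spread was estimated over all 60 libraries of the series and not from these 6 alone.

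Of 6070 genes tested, 1301 (21.4%) rose and 1244 (20.5%) fell at 42 °C, where a call needed a change of at least 1 log2 unit and an adjusted p under 0.05 (edgeR's quasi-likelihood test, Benjamini-Hochberg adjustment), which is 41.9% in either direction. The median log2 fold change over all genes was -0.02. That median was 0.15 higher with RLE size factors and 0.36 lower with library totals alone, and with library totals the split became 964 higher and 1730 lower. The shares of 21.4% higher and 20.5% lower are those to set beside every list count of this comparison below. Log2 fold changes are given below as 42 °C over 37 °C unless another comparison is named. The ± value after a log2 fold change is an approximate standard error. It was computed as the absolute log2 fold change divided by the square root of the test's F statistic. For genes with few counts it is only a rough guide and may be too small.

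Every one of the 18 core Hsf1 chaperone genes rose at 42 °C, with a median log2 fold change of 3.04 and a range of 1.16 to 6.06. With library totals alone 17 were called. HSP42, whose product gathers misfolded proteins into aggregates, stood at 19620, 25570 and 15290 CPM in the 42 °C libraries, against 223, 320.4 and 391.2 CPM in the 37 °C libraries. Its log2 fold change was 6.02 ± 0.51 (adjusted p = 4.18e-14). BTN2, a partner in that sorting of aggregates, stood at 8355, 8438 and 10700 CPM at 42 °C, against 170.9, 106.0 and 135.4 CPM at 37 °C, a log2 fold change of 6.06 ± 0.47. For both genes the lowest 42 °C library lay far above the highest 37 °C library. The disaggregase HSP104, which pulls proteins back out of aggregates, stood at 22520, 20290 and 22550 CPM at 42 °C, against 790.4, 724.6 and 984.0 CPM at 37 °C (4.71 ± 0.30). HSP78, its relative in the mitochondrial matrix, stood at 4642, 3564 and 5852 CPM at 42 °C, against 322.8, 221.9 and 279.7 CPM at 37 °C (4.09 ± 0.33).

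The Hsp90 and Hsp70 genes on the list and their partner proteins rose as well. The heat-inducible Hsp90 gene HSP82 rose by 4.33 ± 0.35 and the more constant copy HSC82 by 2.31 ± 0.35 on the log2 scale. STI1, which hands client proteins from Hsp70 to Hsp90, stood at 14370, 15580 and 12480 CPM at 42 °C, against 1845, 2235 and 2433 CPM at 37 °C (2.70 ± 0.26). The general Hsp40 YDJ1 stood at 3453, 3698 and 3639 CPM at 42 °C, against 894.4, 827.4 and 920.2 CPM at 37 °C (2.03 ± 0.19). AHA1, an activator of the Hsp90 ATPase, moved least of the list, with 3438, 3772 and 2832 CPM at 42 °C, against 1425, 1415 and 1646 CPM at 37 °C (1.16 ± 0.18, adjusted p = 5.06e-07). The temperature groups of these 3 genes did not overlap. SSA1 (2.69 ± 0.29) and SSA2 (1.95 ± 0.24), the constitutive Hsp70 genes, are near-identical over 57.9% and 58.2% of their 50-base windows, so reads may be split between them and their values are uncertain.

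**Figure D1:**
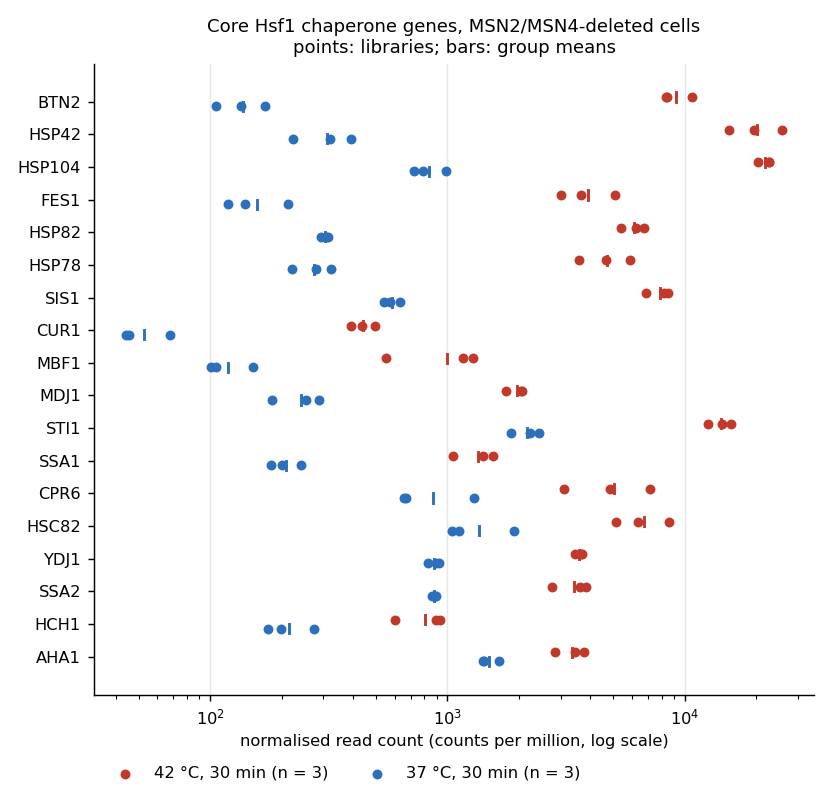
TMM-scaled CPM (log axis) of the 18 core Hsf1 chaperone genes in the MSN2 MSN4 deleted libraries after 30 min; each point is one library at 42 °C or 37 °C and each bar a group mean. All 18 genes were called higher at 42 °C, where 21.4% of all genes were, from AHA1 with a log2 fold change of 1.16 to BTN2 with 6.06.

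Together these 18 genes took 9.54%, 9.06% and 12.8% of all counts in the 42 °C libraries, against 1.54%, 1.12% and 1.22% in the 37 °C libraries (10.5 ± 2.04% at 42 °C and 1.29 ± 0.221% at 37 °C, SD, n = 3 each). The table names put the libraries in 3 sets of unstated meaning, each holding 1 library of either temperature, and within the sets the share was 11.3, 8.42 and 7.84 percentage points higher at 42 °C. The groups did not overlap, and the two-sided exact permutation p was 0.1, the smallest that 3 against 3 allows. In the unshifted 25 °C libraries the share was 0.542%.

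Heat shock genes outside that list were mixed: 7 of 22 rose, 4 fell and 11 were not called. Over all genes 21.4% rose and 20.5% fell. SSA4, an Hsp70 gene that is nearly silent in unstressed cells, had the largest change of the list, with 26400, 20800 and 25620 CPM at 42 °C, against 111.8, 88.3 and 125.1 CPM at 37 °C (7.81 ± 0.40, adjusted p = 9.07e-21). HSP30, whose product dampens the plasma membrane proton pump, stood at 3276, 1932 and 4481 CPM at 42 °C, against 12.3, 11.3 and 29.8 CPM at 37 °C (7.51 ± 0.77). Neither gene's groups came near each other. The Hsp40 gene APJ1 rose by 5.24 ± 0.27, SSA3, another inducible Hsp70, by 4.90 ± 0.43 and the Hsp110 exchange factor SSE1 by 1.93 ± 0.20. HSP26, the other small heat shock protein gene, stood at 941.1, 1124 and 1276 CPM at 42 °C, against 106.9, 177.4 and 270.1 CPM at 37 °C (2.59 ± 0.55). On the falling side were the membrane protein gene MRH1 (-2.95) of the HSP30 family, the Hsp90 phosphatase PPT1 (-1.80) and the Hsp40 XDJ1 (-1.22). YRO2, a relative of MRH1, was at -1.68, a call lost without the first 42 °C library (-1.51) or the third 37 °C library (-1.41).

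Chaperones of the endoplasmic reticulum, where secreted proteins fold, also rose: 14 of 23 rose, 3 fell, and the list median was 1.54. KAR2, the Hsp70 of that compartment, stood at 61330, 64530 and 42060 CPM at 42 °C, against 3592, 4698 and 6091 CPM at 37 °C (3.55 ± 0.30, adjusted p = 5.63e-14). ERO1, which supplies oxidising power for disulfide bonds, stood at 1602, 1787 and 1860 CPM at 42 °C, against 228.2, 209.0 and 254.4 CPM at 37 °C (2.92 ± 0.24). Both genes were far higher in every 42 °C library. SIL1, the exchange factor of KAR2, rose by 3.01, the disulfide isomerases MPD1 and PDI1 by 2.93 and 1.85, DER1 of the protein disposal route by 2.87 and LHS1, an Hsp70 relative, by 2.24. HAC1, the transcription factor of the unfolded protein response, rose by 2.06 ± 0.39. The 3 that fell were the cyclophilin CPR5 (-1.42), the calnexin CNE1 (-1.58) and EPS1 (-1.81). The list's share of counts was 8.02 ± 0.815% at 42 °C and 1.65 ± 0.292% at 37 °C (SD, n = 3 each; exact permutation p = 0.1).

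In mitochondria, 5 of 15 chaperone genes rose and 1 fell, where 21.4% of all genes rose and 20.5% fell. SSC1, the matrix Hsp70, stood at 16020, 17720 and 11490 CPM at 42 °C, against 2060, 2891 and 3059 CPM at 37 °C (2.50 ± 0.27). The chaperonin genes HSP60 and HSP10 rose by 1.87 and 1.83, and PAM18, a subunit of the import motor, was at -1.15, a call lost without the first 42 °C library (-0.96) or the second 37 °C library (-0.95). Of 14 genes of the cytosolic chaperonin and prefoldin none rose and 2 fell.

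Most genes for chaperones that work at the ribosome went the other way from the heat-inducible ones: 12 of 15 fell, 2 rose, and the median was -2.66. EGD2, a subunit of the nascent polypeptide-associated complex, stood at 67.6, 50.0 and 49.3 CPM at 42 °C, against 762.1, 896.0 and 742.8 CPM at 37 °C (-3.85, adjusted p = 4.39e-17). ZUO1 and SSZ1, which form the ribosome-associated complex, fell by 2.66 and 2.13 on the log2 scale. SSB1 (-4.48 ± 0.48) and SSB2 (-4.13 ± 0.42), the ribosome-bound Hsp70 genes, share 43.2% of their 50-base windows with near-identical sequence, so their separate values are uncertain. The pair that rose were ZPR1 and YAR1. ZPR1, a folding factor for translation elongation factor 1A, stood at 10630, 11890 and 9712 CPM at 42 °C, against 247.1, 267.7 and 282.9 CPM at 37 °C (5.34 ± 0.25, adjusted p = 5.54e-22). YAR1, the dedicated chaperone of a small-subunit ribosomal protein, stood at 1166, 1156 and 1424 CPM at 42 °C, against 121.0, 105.2 and 104.1 CPM at 37 °C (3.50 ± 0.28). No 42 °C library of either gene came down to the 37 °C range. With ZPR1 and YAR1 included, the list's share of counts was higher at 42 °C. It was 1.12 ± 0.122% at 42 °C and 0.399 ± 0.044% at 37 °C (SD, n = 3 each, two-sided exact permutation p = 0.1).

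Of 33 genes for the proteasome, which degrades unwanted proteins, and its activator Rpn4, 3 rose and 1 fell, with a median of 0.30, where 21.4% of all genes rose and 20.5% fell. RPN4 itself stood at 591.9, 672.0 and 782.4 CPM at 42 °C, against 194.1, 129.4 and 162.1 CPM at 37 °C (2.07 ± 0.27). Among 29 ubiquitin and autophagy genes 6 rose, a share near that of all genes, and 3 fell; with library totals 3 rose. PRB1, the vacuolar protease B, stood at 18810, 19780 and 10430 CPM at 42 °C, against 504.6, 919.4 and 1095 CPM at 37 °C (4.28 ± 0.45).

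The general stress list holds 40 genes taken as Msn2 and Msn4 targets, chosen with earlier results of these data known. Of these, 10 rose and 10 fell. Over all genes 21.4% rose and 20.5% fell, so the list stood near those shares. Its median was -0.33. The list's share of counts was nonetheless higher at 42 °C, with 0.845 ± 0.052% against 0.507 ± 0.124% at 37 °C (SD, n = 3 each, two-sided exact permutation p = 0.1). The groups did not overlap in that share. CTT1, the cytosolic catalase whose 3 stress elements are printed above, stood at 68.2, 98.7 and 45.4 CPM at 42 °C, against 45.3, 61.6 and 78.0 CPM at 37 °C (0.20 ± 0.41, adjusted p = 0.698). HSP12, a membrane-stabilising hydrophilin, stood at 29.03, 11.2 and 63.2 CPM at 42 °C, against 58.98, 37.4 and 81.2 CPM at 37 °C (-0.78 ± 0.81, adjusted p = 0.42). The groups of both genes overlapped. Both were nonetheless above their unshifted level, since CTT1 stood at 17.4, 21.3 and 23.4 CPM and HSP12 at 0, 0.894 and 2.43 CPM at 25 °C.

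The rising members of the list included SPI1, a cell wall protein gene, with 2471, 3087 and 2095 CPM at 42 °C, against 54.2, 63.1 and 88.6 CPM at 37 °C (5.22 ± 0.49). GRE3, an aldose reductase gene, stood at 2167, 2235 and 1766 CPM at 42 °C, against 208.7, 225.7 and 295.3 CPM at 37 °C (3.08 ± 0.23). TMA10, whose product associates with ribosomes, stood at 142.8, 114.6 and 197.2 CPM at 42 °C, against 3.53, 3.55 and 5.38 CPM at 37 °C (5.19 ± 0.52). In these 3 genes the temperatures were well separated. HOR7 (4.38), GRE1 (2.81) and STF2 (2.14) rose as well. The falling members included genes of sugar metabolism. HXK1, a hexokinase gene, stood at 4.77, 3.51 and 1.82 CPM at 42 °C, against 70.1, 36.4 and 48.6 CPM at 37 °C (-3.94 ± 0.50). PGM2, which makes glucose-1-phosphate for glycogen and trehalose, stood at 4.77, 6.49 and 4.66 CPM at 42 °C, against 35.8, 32.3 and 42.7 CPM at 37 °C (-2.79 ± 0.39). TFS1 (-1.73), PRX1 (-1.54), GLC3 (-1.45) and PNC1 (-1.22) fell too.

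Of 20 genes for trehalose and glycogen, stores that yeast builds under heat, 8 fell and 2 rose (median -0.86). TPS1, the trehalose phosphate synthase gene, stood at 79.5, 60.1 and 70.3 CPM at 42 °C, against 132.7, 142.4 and 165.3 CPM at 37 °C (-1.07 ± 0.27, adjusted p = 0.000866), a call that was lost with RLE size factors (-0.92), DESeq2 (-0.92) and no low-count filter (-0.98), and without the second or the third 42 °C library (-0.88, -0.97) or the third 37 °C library (-0.98). The glycogen primers GLG1 (-1.85) and GLG2 (-2.04) fell. TSL1, a regulatory subunit of the trehalose complex, stood at 266.3, 259.9 and 144.1 CPM at 42 °C, against 75.7, 100.8 and 144.1 CPM at 37 °C. Its log2 fold change of 1.06 ± 0.43 was not called with library totals (0.68), nor without the first (1.03) or the second (1.03) 42 °C library or the first (0.85) or the second (1.01) 37 °C library.

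**Figure D2:**
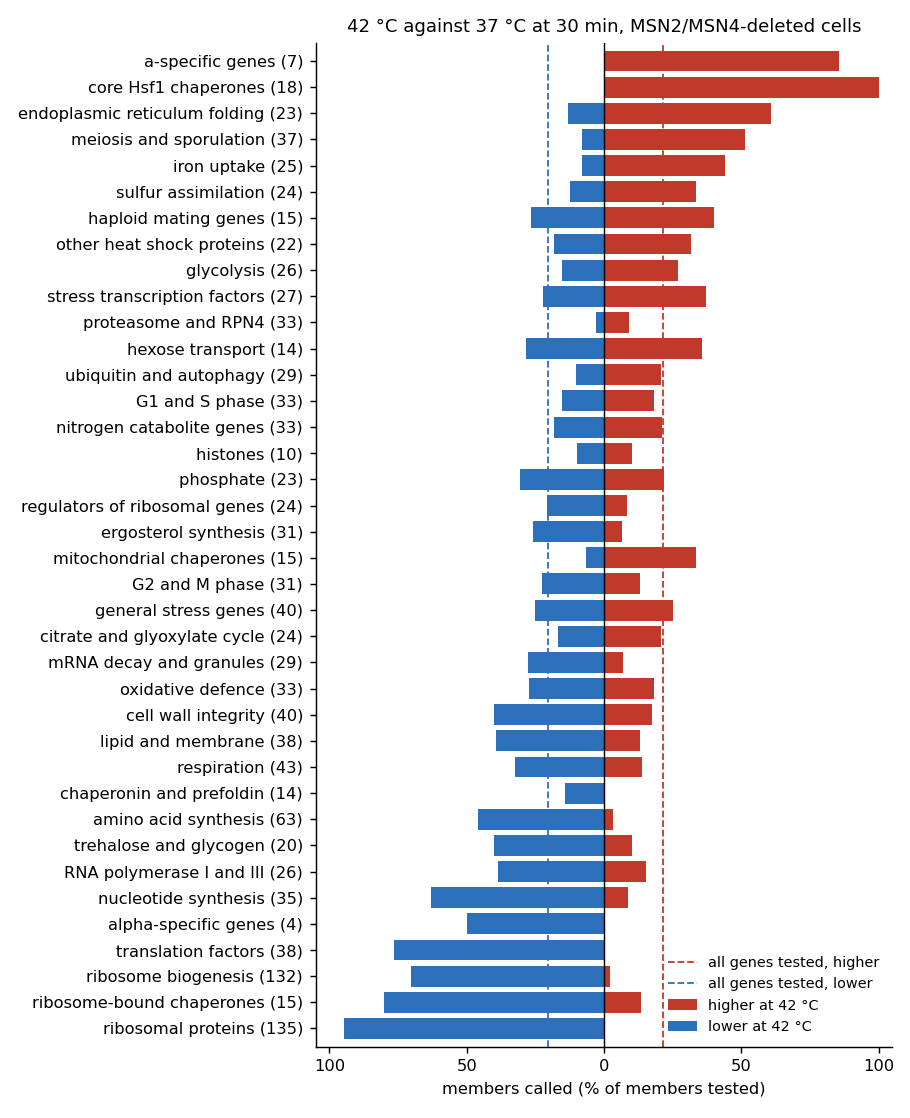
Share of the tested members of each of 38 gene lists that were called higher (to the right) or lower (to the left) at 42 °C than at 37 °C, in percent; dashed lines mark the shares of all 6070 genes, 21.4% higher and 20.5% lower. The core Hsf1 chaperones reach the right edge and the ribosomal proteins lie almost wholly on the left.

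Ribosomal protein genes stood on the falling side: 128 of 135 tested genes fell, none rose, and the median log2 fold change was -4.01. RPL3, for a large-subunit protein, stood at 153, 76.8 and 63.04 CPM at 42 °C, against 2108, 2244 and 1906 CPM at 37 °C (-4.42 ± 0.31, adjusted p = 1.08e-16). RPS22A, for a small-subunit protein, stood at 15.0, 4.73 and 6.28 CPM at 42 °C, against 504.4, 349.2 and 251.6 CPM at 37 °C (-5.42 ± 0.43). The first 42 °C library was the highest of its group in both genes and still lay far below every 37 °C library. RPS0B (-5.43 ± 0.52) had the largest fall of the list, and the stalk protein gene RPP0 fell by 3.12 on the log2 scale. Many ribosomal protein genes come as near-identical pairs, and how reads common to a pair were counted is not stated: RPS8B (-5.33, 75.1% of its windows not unique) and RPL2A (-5.23, 28.5%) are uncertain for that reason. RPL3 and RPP0 each have 1 copy. The whole list took 0.398%, 0.240% and 0.337% of counts at 42 °C, against 8.52%, 7.21% and 5.29% at 37 °C (0.325 ± 0.0796% at 42 °C and 7.003 ± 1.624% at 37 °C, SD, n = 3 each; exact permutation p = 0.1). Within the 3 library sets the share was lower at 42 °C by 8.18, 6.81 and 5.05 percentage points. At 25 °C it was 10.5 ± 0.338%.

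The genes that build and serve ribosomes fell alongside. Of 132 ribosome biogenesis genes 93 fell and 3 rose, with a median of -1.89. NOP56, a core protein of the particles that methylate ribosomal RNA, stood at 6.28, 2.63 and 3.85 CPM at 42 °C, against 125.3, 93.3 and 80.1 CPM at 37 °C (-4.56 ± 0.47). NHP2 (-4.16), of the particles that make pseudouridine, and the assembly factors PUF6 (-4.15) and RLP24 (-3.75) also fell. RCL1 (1.97) rose, and the calls of RRP14 (1.48) and SPB4 (1.09) were lost with library totals (1.17, 0.76) and without the third 42 °C library (1.20, 0.99), that of RRP14 also without the third 37 °C library (1.32). Of 38 translation factor genes 29 fell and none rose (median -1.86). YEF3, the fungal elongation factor 3, stood at 287.7, 115.1 and 115.5 CPM at 42 °C, against 2460, 2730 and 2352 CPM at 37 °C (-3.86 ± 0.40). STM1, which guards idle ribosomes, stood at 48.8, 35.1 and 20.9 CPM at 42 °C, against 976.9, 1474 and 1153 CPM at 37 °C (-5.11 ± 0.38). These groups, too, were far apart.

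Of 26 genes for RNA polymerases I and III, which transcribe ribosomal and transfer RNA, 10 fell and 4 rose. The polymerase I subunit genes RPA49 (-5.08), RPA43 (-4.17) and RPA12 (-3.99) fell, whereas RRN6 (1.66), for an initiation factor of polymerase I, rose. Among 24 regulators of ribosomal genes 5 fell, or 3 without the first 42 °C library, and 2 rose. The share that fell was near the 20.5% of all genes. The growth kinase gene SCH9 (-2.24) and TPK2 (-1.87), for a catalytic subunit of protein kinase A, fell. IRA2, whose product switches off Ras and with it protein kinase A, stood at 5577, 7417 and 3446 CPM at 42 °C, against 171.8, 220.3 and 250.7 CPM at 37 °C (4.68 ± 0.37).

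The stress regulators themselves were mixed, with 10 of 25 transcription factor genes higher and 6 lower (median 0.43) once the deleted MSN2 and MSN4 were left out. With library totals 5 were higher. HSF1 stood at 230.9, 256.6 and 168.4 CPM at 42 °C, against 76.3, 96.9 and 113 CPM at 37 °C (1.20 ± 0.21, adjusted p = 4.19e-06). With library totals its log2 fold change was 0.82 and was not called. COM2 (2.68), ADR1 (2.14), an activator of genes for alternative carbon sources, and CRZ1 (1.78), the calcineurin-dependent factor, rose. MIG1, the glucose repressor, fell by 3.31, GCN4, the activator of amino acid synthesis, by 2.17 and GIS1, a factor of the stationary phase programme, by 1.83 on the log2 scale. Of 33 genes of oxidative defence 6 rose and 9 fell, or 14 fell with library totals. For both lists, the shares over all genes were 21.4% higher and 20.5% lower.

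Among the metabolic lists, synthesis pathways were mainly lower at 42 °C. Of 63 amino acid synthesis genes 29 fell and 2 rose. GLN1, glutamine synthetase, stood at 33.2, 29.6 and 48.04 CPM at 42 °C, against 788.8, 854.5 and 672.2 CPM at 37 °C (-4.39 ± 0.40), so that every 42 °C library lay below every 37 °C library by a wide margin. ARO4, the entry enzyme of aromatic amino acids, fell by 4.54 ± 0.35, the glutamate dehydrogenase gene GDH1 by 3.60 and the transaminase gene BAT1 by 3.52 on the log2 scale. Of 35 nucleotide synthesis genes 22 fell and 3 rose. URA5 (-2.75), of the pyrimidine route, was among those that fell and RNR3 (2.24), a ribonucleotide reductase gene induced by DNA damage, among those that rose.

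The next list counts stand beside 21.4% of all genes higher and 20.5% lower. Respiration genes numbered 6 higher (3 with library totals) and 14 lower of 43, with CYC1, the main cytochrome c gene, at 2.16 and SDH3, a succinate dehydrogenase subunit gene, at -2.37. Of 26 glycolysis genes 7 rose and 4 fell, and the list's share of counts did not separate the temperatures (13.1 ± 2.49% at 42 °C, 15.3 ± 1.48% at 37 °C, SD, n = 3 each; exact permutation p = 0.3). PDC1, pyruvate decarboxylase, stood at 9889, 9167 and 4234 CPM at 42 °C, against 18920, 27640 and 28010 CPM at 37 °C (-1.68 ± 0.41). ADH2 (3.78), the alcohol dehydrogenase that consumes ethanol and is silenced by glucose, rose. Of 25 iron uptake genes 11 rose and 2 fell: the surface reductase gene FRE1 (3.65) and the iron regulator gene AFT1 (2.63) rose, and CCC1 (-2.49), a vacuolar iron transporter gene, fell. In sulfur assimilation 8 of 24 rose and 3 fell, led by MET14 (3.19) and the sulfate permease gene SUL2 (2.91).

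At the cell surface 7 of 40 cell wall genes rose and 16 fell, and 3 rose without the first 37 °C library, 4 with library totals and 4 at an adjusted p under 0.01. The glucan synthase gene FKS1 fell by 3.53 and the glucanase genes EXG1 and SCW4 by 3.61 and 3.38 on the log2 scale, whereas GSC2, the stress-inducible copy of the glucan synthase, rose by 2.76. INA1 stood at 54.8, 68 and 23.1 CPM at 42 °C, against 1975, 2434 and 1784 CPM at 37 °C (-5.41 ± 0.53). Lipid and membrane genes numbered 5 higher and 15 lower of 38, ergosterol genes 2 and 8 of 31, and mRNA decay genes 2 and 8 of 29. Hexose transport genes numbered 5 higher and 4 lower of 14, the citrate and glyoxylate cycle 5 and 4 of 24, phosphate genes 5 and 7 of 23, and nitrogen catabolite genes 7 and 6 of 33. Over all genes 21.4% rose and 20.5% fell, so the citrate and nitrogen lists stood near those shares. Cell cycle lists were close to even, with 6 higher and 5 lower of 33 genes of G1 and S phase, 4 and 7 of 31 genes of G2 and M phase, and 1 and 1 of 10 histone genes. Without the third 42 °C library 4 ergosterol genes were lower, and without the first 37 °C library, as at an adjusted p under 0.01, 3 phosphate genes were higher. With library totals 2 phosphate genes and 3 genes of the citrate and glyoxylate cycle were higher, and 3 of the cycle also with the compared libraries alone. Library totals also gave 13 lower mRNA decay genes, 3 higher and 8 lower genes of G1 and S phase and 12 lower genes of G2 and M phase.

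Transcripts of mating and sporulation programmes were higher at 42 °C in many cases. Of 37 meiosis and sporulation genes 19 rose and 3 fell, with a median of 1.11. SPS1, a kinase gene of spore formation, stood at 47.7, 57.8 and 46.6 CPM at 42 °C, against 1.48, 2.20 and 1.68 CPM at 37 °C (4.83 ± 0.35). Of 7 a-specific genes, the set that only cells of mating type a normally use, 6 rose. BAR1, the protease that degrades alpha factor, stood at 136.1, 135.1 and 116.8 CPM at 42 °C, against 4.21, 6.09 and 4.04 CPM at 37 °C (4.76 ± 0.31), and ASG7 stood at 33.6, 33.3 and 34.5 CPM at 42 °C, against 0.342, 0.169 and 0.505 CPM at 37 °C (6.56 ± 0.47), where each library held 3 counts or fewer. Of 4 alpha-specific genes 2 fell: MF(ALPHA)1, the alpha factor gene, stood at 17.98, 9.82 and 10.1 CPM at 42 °C, against 229.6, 325.3 and 330.3 CPM at 37 °C (-4.55 ± 0.35), and STE3, the receptor for a factor, fell by 2.79 on the log2 scale. The summed level of 5 a-type markers was 230.9 to 263.9 CPM at 42 °C and 51.5 to 66.2 CPM at 37 °C, that of 4 alpha-type markers 134 to 207.7 CPM at 42 °C and 607.1 to 893.8 CPM at 37 °C, and that of 8 meiotic markers 141 to 153.4 CPM at 42 °C and 73.6 to 82.3 CPM at 37 °C. None of these markers was at 0, and a part of mixed cell types in the result was not tested. Of 15 haploid mating genes 6 rose and 4 fell, with the mating fusion gene FIG1 (5.28 ± 0.48) higher and the cell cycle inhibitor gene FAR1 (-1.83) lower.

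The 12 largest rises were taken from called genes of at least moderate average level whose temperature groups did not overlap. Separate groups were thus a condition of this choice and not a result. These rises mixed chaperones with genes of other kinds. Of SSA4 and HSP30 the values stand above. CMK2, a calmodulin-dependent kinase gene, stood at 4614, 3963 and 4903 CPM at 42 °C, against 36.3, 38.7 and 41.7 CPM at 37 °C (6.85 ± 0.37). ATG41, an autophagy gene, stood at 16960, 25490 and 8292 CPM at 42 °C, against 55.1, 76.3 and 124.4 CPM at 37 °C (7.63 ± 0.73). MNC1 stood at 3689, 2483 and 3265 CPM at 42 °C, against 18.9, 12.7 and 11.6 CPM at 37 °C (7.76 ± 0.58). In these 3 genes the 42 °C libraries lay at 2483 CPM or above and the 37 °C libraries between 11.6 and 124.4 CPM. BSC1 (7.50 ± 0.82), the spore wall gene LDS1 (7.10 ± 0.41), RRT12 (6.99 ± 0.51) and PRM7 (6.91 ± 0.80) followed. PRM7 had been at 107.9, 140.0 and 48.7 CPM at 25 °C, and stood at 1147, 1382 and 839.8 CPM at 42 °C, against 10.9, 6.43 and 10.4 CPM at 37 °C. RRT12 overlaps a gene on the other strand by 351 bases, and without stated strand use its reads may be partly those of the neighbour.

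3 more of the largest rises were all but silent at 37 °C, so their size is given as a ratio of summed counts with its 95% counting interval. OSW1, a spore wall gene, had 1535 counts at 42 °C and 1 count at 37 °C, a depth-scaled ratio of 2077 (372.3 to 8.21e+04). NAG1 had 1893 counts at 42 °C and 3 at 37 °C (853.9, 291.7 to 4144), and IRC16 had 988 counts at 42 °C and 2 at 37 °C (668.5, 184.6 to 5528). NAG1 lies antisense to another gene over 492 bases and IRC16 overlaps others over 184 bases on its own strand and 203 on the opposite one, so both are uncertain. The 12 largest falls were 11 ribosomal protein genes and INA1.

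Both temperatures could be set against the unshifted 25 °C cells of the same strain, in comparisons that share libraries with the one above. At 37 °C for 30 min 478 genes (7.87%) stood higher and 478 (7.87%) lower than at 25 °C, 15.7% in either direction; with library totals the split was 649 higher and 315 lower. At 42 °C for 30 min 1593 (26.2%) stood higher and 1409 (23.2%) lower than at 25 °C, 49.5% in either direction. Of the core Hsf1 chaperones 11 of 18 were above 25 °C at 37 °C (median 1.48), and 18 of 18 at 42 °C (median 4.4). HSP42 stood at 14.9, 12.5 and 22.99 CPM at 25 °C, so that it was 4.21 ± 0.47 log2 units higher at 37 °C and 10.2 ± 0.61 higher at 42 °C. Ribosomal protein genes were below 25 °C for 20 of 135 at 37 °C (median -0.78) and for 132 at 42 °C (median -4.82). RPL3 stood at 3250, 3546 and 3232 CPM at 25 °C, and its difference of -0.68 ± 0.27 at 37 °C was not called (adjusted p = 0.0539).

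Of 132 ribosome biogenesis genes 115 were already below 25 °C at 37 °C (median -1.78), and 127 at 42 °C (median -3.63). NSR1, the yeast nucleolin, stood at 571.4, 683.7 and 482.1 CPM at 25 °C, at 43.95, 45.8 and 33.8 CPM at 37 °C and at 8.45, 5.08 and 7.70 CPM at 42 °C. The general stress list was above 25 °C for 27 of 40 genes at 37 °C (median 1.56) and for 22 at 42 °C (median 1.07). HXK1 showed a rise at 37 °C that was missing at 42 °C: it stood at 3.15, 4.83 and 8.14 CPM at 25 °C, was 3.25 ± 0.47 log2 units higher at 37 °C, and its -0.69 ± 0.51 at 42 °C was not called.

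The same step was measured in wild-type cells, whose MSN2 and MSN4 are intact. By table name, their libraries lie in other sets than those of the deleted cells. Effects of strain and of library set on levels or responses therefore cannot be told apart. The difference between the strains was tested as an interaction, the 42 °C over 37 °C log2 fold change in deleted cells minus that in wild type. It was higher in deleted cells for 336 genes (5.54%) and lower for 380 (6.26%), 11.8% in either direction, with a median of 0.21 over all genes. The count of higher differences was 192, 201 and 199 without the first, second or the third 37 °C library of deleted cells, 202 and 223 without the second or the third 42 °C wild-type library, and 209 without the second 37 °C wild-type library. In the general stress list the difference was lower for 26 of 40 genes and higher for none (median -2.46), and in the trehalose and glycogen list lower for 16 of 20 (median -2.21). In wild type itself 36 of 40 general stress genes were higher at 42 °C than at 37 °C, where 21.5% of all genes were higher and 22.3% lower. The list members were chosen with earlier results of these data known, so these counts are descriptive and no independent test.

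CTT1 was among the 26. It stood at 68.2, 98.7 and 45.4 CPM at 42 °C and at 45.3, 61.6 and 78.0 CPM at 37 °C in deleted cells, against 8588, 9359 and 10270 CPM at 42 °C and 203.2, 208.9 and 242.5 CPM at 37 °C in wild type. The log2 fold change was 0.20 in deleted cells and 5.43 in wild type, a difference of -5.23 ± 0.61 (adjusted p = 2.13e-08). RGI1, a gene of energy metabolism, had log2 fold changes of 0.44 in deleted cells and 5.95 in wild type, and the hexose transporter gene HXT5 had 2.20 in deleted cells and 7.48 in wild type. PGM2 (-5.06 ± 0.53) and TPS1 (-3.32 ± 0.39) changed sign between the strains, since both rose in wild type, by 2.27 and 2.25. HSP26 rose in both strains, by 2.59 in deleted cells and 6.03 in wild type (difference -3.43 ± 0.75), and at 42 °C reached 941.1 to 1276 CPM in deleted cells, against 39050 to 51810 CPM in wild type. SPI1 and GRE3 did not differ by a called amount, with differences of 1.11 ± 0.58 (adjusted p = 0.218) and -0.25 ± 0.31 (adjusted p = 0.652).

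None of the 18 core chaperone genes had a called difference between the strains (median 0.34), and none of the 23 endoplasmic reticulum genes did (median 0.35). By edgeR the HSP42 difference was 0.88 ± 0.58 (adjusted p = 0.338) and that of KAR2 0.19 ± 0.39 (adjusted p = 0.807), which does not show that the strains respond alike. The core chaperones' share of counts at 42 °C was 10.5 ± 2.04% in deleted cells and 6.50 ± 0.845% in wild type, and the general stress list's 0.845 ± 0.052% in deleted cells and 11.4 ± 0.805% in wild type (SD, n = 3 each). Of the ribosomal protein genes 20 of 135 had a higher difference and none a lower one (median 0.86), against a median of 0.21 over all genes. RPL3 was among them (1.55 ± 0.38): in wild type it stood at 43.4, 30.5 and 34.4 CPM at 42 °C, against 1883, 2246 and 2641 CPM at 37 °C. MEP2, a high-affinity ammonium transporter gene, went in opposite directions. It stood at 491.8, 506.0 and 488.5 CPM at 42 °C, against 94.5, 128.7 and 136.7 CPM at 37 °C in deleted cells (2.05 ± 0.42), and at 26.5, 32.1 and 49 CPM at 42 °C, against 146.4, 126.6 and 135.5 CPM at 37 °C in wild type (-1.92 ± 0.42), a difference of 3.97 ± 0.60. Of the 43 respiration genes 17 had a lower difference and none a higher one (median -1.13).

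**Figure D3:**
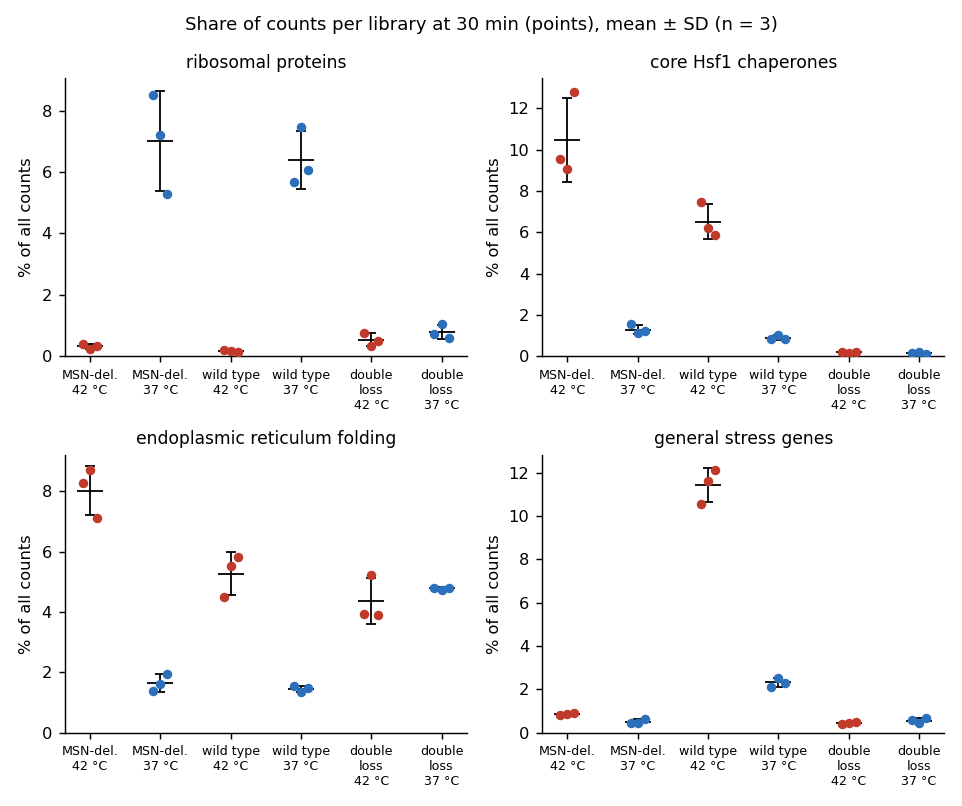
Share of all counts (percent) taken by 4 gene lists in each library at 42 °C and 37 °C for 30 min in MSN2 MSN4 deleted, wild-type and double loss cells; points are libraries, bars the mean and error bars the SD of 3 libraries. In deleted cells core chaperones rise to 10.5% at 42 °C, against 1.29% at 37 °C. General stress genes there rise to 0.845% at 42 °C, against 0.507% at 37 °C, and wild type reaches 11.4% for that list at 42 °C.

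Cells that lacked Hsf1 in the nucleus as well as Msn2 and Msn4 were measured over the same step. Of the strain states compared here, double loss alone received rapamycin, so its own effect and the loss of Hsf1 cannot be told apart. The difference from double loss was higher for 727 genes (12%) and lower for 954 (15.7%), 27.7% in either direction; with library totals the split was 384 higher and 1412 lower. All 18 core chaperone genes had a higher difference (median 2.72), and in double loss itself, where 20.9% of all genes were higher and 16.7% lower at 42 °C, 3 of 18 rose: BTN2 (2.48), HSP82 (1.93) and HSP104 (1.08). This list, too, was chosen with earlier results of these data known, so its count is descriptive. HSP42 stood at 28.6, 35.7 and 30.3 CPM at 42 °C, against 30.3, 24.6 and 43.6 CPM at 37 °C in double loss, a log2 fold change of -0.05 that differed from that of deleted cells with Hsf1 by 6.07 ± 0.63 (adjusted p = 1.1e-10). SSA4 stood at 100.2, 85.7 and 118.3 CPM at 42 °C, against 66.2, 65.2 and 55.7 CPM at 37 °C in double loss (difference 7.11 ± 0.47). Both stayed low there at both temperatures, SSA4 near its 37 °C level in deleted cells with Hsf1 and HSP42 well below its own. HSP30 still rose in double loss, by 2.99, and its difference was 4.52 ± 0.90.

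The endoplasmic reticulum genes had a higher difference for 16 of 23 and a lower one for none (median 2.17). The groups in double loss were unlike those of the deleted cells at both ends: KAR2 stood at 9588, 17820 and 10250 CPM at 42 °C, against 16490, 11950 and 17960 CPM at 37 °C in double loss. Deleted cells with Hsf1 held 3592 to 6091 CPM at 37 °C, below every double loss library. ULI1, a gene induced by the unfolded protein response, showed the same arrangement, with 195.4, 229.8 and 205.3 CPM at 42 °C, against 12.6, 9.98 and 19.3 CPM at 37 °C in deleted cells (3.91 ± 0.25), and 114.6, 120.0 and 96.7 CPM at 42 °C, against 947.1, 1453 and 939.3 CPM at 37 °C in double loss (difference 7.24 ± 0.34). Of 33 proteasome genes 14 had a higher difference and none a lower one (median 1.08).

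Ribosomal protein genes had a lower difference for 123 of 135 (median -3.49). In double loss RPL3 stood at 151.6, 71.8 and 98.2 CPM at 42 °C, against 422.8, 290.7 and 409.6 CPM at 37 °C, while deleted cells with Hsf1 held 1906 to 2244 CPM at 37 °C, well above double loss, and overlapped with it at 42 °C. The list took 0.540 ± 0.211% of counts at 42 °C and 0.786 ± 0.224% at 37 °C in double loss (SD, n = 3 each). HSF1 transcript itself was lower at 42 °C than at 37 °C in double loss (-1.25), and its difference was 2.44 ± 0.30. In the general stress list 7 of 40 had a higher and 1 a lower difference (median 0.18).

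**Figure D4:**
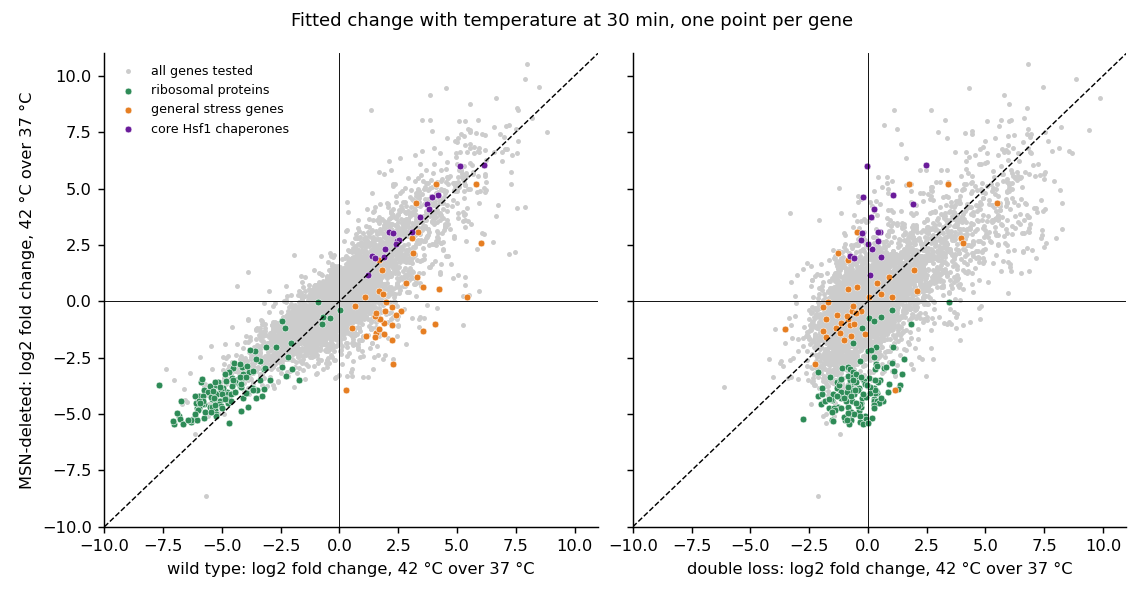
Fitted log2 fold change of every tested gene at 42 °C over 37 °C after 30 min in MSN2 MSN4 deleted cells (vertical axis) against wild type (left panel) and double loss (right panel), with core chaperones, general stress genes and ribosomal proteins coloured and the line of equal change dashed. General stress genes lie below the line against wild type (26 of 40 with a called lower difference); against double loss all 18 core chaperones lie above it and 123 of 135 ribosomal proteins below it by a called amount.

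The gap between 42 °C and 37 °C was also compared between 30 min and 10 min in the deleted cells. The difference was higher at 30 min for 473 genes (7.79%) and lower for 985 (16.2%), 24% in either direction; the split was 286 and 1111 with library totals and 698 and 808 with RLE size factors. The count of higher differences was 715 and 807 without the first or the third 42 °C library of 30 min, 930 without the first 42 °C library of 10 min and 722 without the first 37 °C library of 10 min. At 10 min itself 1099 genes (18.1%) were higher and 307 (5.06%) lower at 42 °C than at 37 °C. Of the core chaperones 16 of 18 had a higher difference at 30 min (median 1.99), and at 10 min 6 of 18 were called higher at 42 °C. SSA4 stood at 7050, 11500 and 11980 CPM at 42 °C, against 5311, 5289 and 6842 CPM at 37 °C after 10 min, a log2 fold change of 0.81, and the difference to 30 min was 7 ± 0.47 (adjusted p = 1.24e-15). Its 42 °C level was thus already high at 10 min, and the 37 °C level, high at 10 min, was 88.3 to 125.1 CPM at 30 min. HSP42 repeated this, with 19190, 11030 and 9787 CPM at 42 °C, against 5584, 5924 and 4169 CPM at 37 °C after 10 min (difference 4.66 ± 0.60). LST8, a subunit of the TOR complexes, stood at 4656, 3862 and 5237 CPM at 42 °C, against 109.0, 90.0 and 105.1 CPM at 37 °C after 30 min (5.50 ± 0.29). After 10 min it stood at 1163, 2007 and 2051 CPM at 42 °C, against 967.5, 993.0 and 1377 CPM at 37 °C (difference 4.85 ± 0.35).

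For the ribosome biogenesis genes the sign of the gap depended on the time. Of 132 ribosome biogenesis genes 108 were higher at 42 °C than at 37 °C after 10 min and none was lower (median 1.90), whereas 93 were lower after 30 min, and 127 had a lower difference at 30 min (median -3.74). NSR1 stood at 17.1, 9.33 and 8.90 CPM at 42 °C, against 2.66, 1.37 and 1.74 CPM at 37 °C after 10 min (2.58), and its log2 fold change after 30 min was -2.55 ± 0.47 (difference -5.12 ± 0.70). PUF6 stood at 7.02, 10.7 and 6.65 CPM at 42 °C, against 0.592, 0.685 and 1.74 CPM at 37 °C after 10 min, and at 1.30, 1.05 and 2.23 CPM at 42 °C, against 29.2, 29.4 and 22.9 CPM at 37 °C after 30 min (difference -7.12 ± 0.57). The 37 °C libraries were therefore the low ones at 10 min and the high ones at 30 min. Ribosomal protein genes had a lower difference for 131 of 135 (median -4.32). At 10 min most of them had no called gap, with 6 higher and 1 lower (median 0.26), where 18.1% of all genes were higher and 5.06% lower. RPL3 stood at 2029, 1583 and 1675 CPM at 42 °C, against 2082, 1701 and 1418 CPM at 37 °C after 10 min, and these groups overlapped. Of the endoplasmic reticulum genes 12 of 23 had a higher difference and 1 a lower one (median 1.07). In the general stress list 7 of 40 had a higher and 2 a lower difference (median 0.21).

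**Figure D5:**
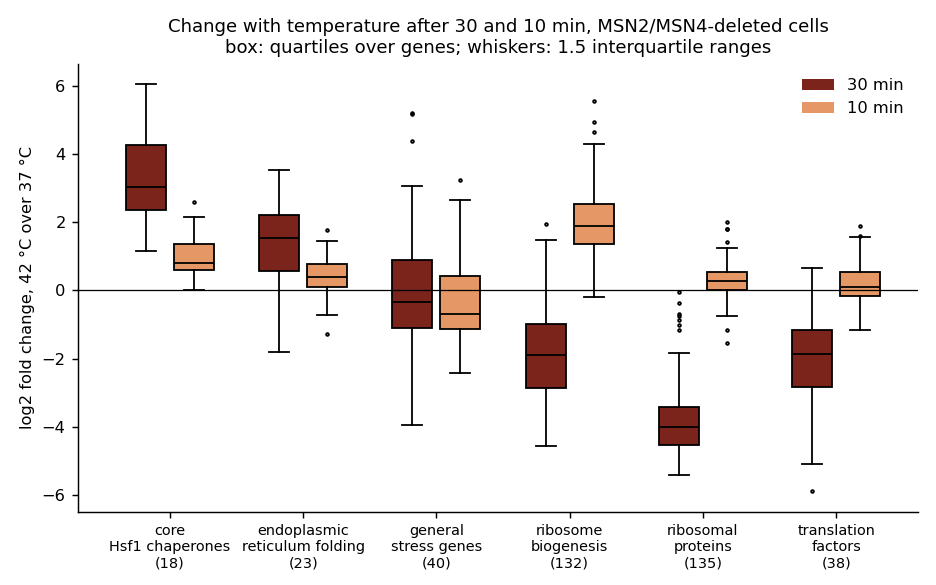
Box plots of the fitted log2 fold change at 42 °C over 37 °C in MSN2 MSN4 deleted cells after 30 min and 10 min for the members of 6 gene lists; each box spans the quartiles with the median as a line and whiskers of up to 1.5 interquartile ranges. Ribosome biogenesis genes have a median of -1.89 at 30 min and 1.90 at 10 min, and core chaperones 3.04 at 30 min and 0.80 at 10 min.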

How the data were processed

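RNA-seq libraries were poly(A)-selected and sequenced as 50 bp single reads, per the labels' protocols. The values are raw read counts per gene, deposited by the authors as 1 table per library. The submitters' processing notes name bcl2fastq 1.8.4, featureCounts 2.0.0 and genome build R64, and the file headers name trimming and ContextMap. Not given in the sources used here are the counting settings, strand use and the handling of reads with several matches. The authors' fold-change table was not used here. Features without an R64 match held 0.459% of counts.

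Members, gene lists and tests were chosen with earlier results of these data known. All 60 libraries and 20 groups entered 1 edgeR (4.0.16, R 4.3.3) quasi-likelihood fit with TMM scaling and edgeR's low-count filter (6070 genes kept, 1056 removed; biological coefficient of variation 0.276; 40 residual degrees of freedom). The 6 comparisons of deleted cells were contrasts of that fit, adjusted by Benjamini-Hochberg over all genes, and differences between strains or times were interaction contrasts. Calls needed a change of at least 1 log2 unit besides an adjusted p under 0.05. Shares of counts were compared by two-sided exact permutation. Genes named were the 12 largest called changes each way with a symbol, no overlap of the groups and a mean log2 CPM of 3 or more, the 6 largest called changes per list with any called member that went against its list's median, and the 6 largest differences each way, plus a fixed set of landmark genes; others named were chosen after their values were seen. Alternatives were RLE size factors, library totals, no filter, DESeq2 1.42.0, the compared libraries alone, an adjusted p under 0.01, a replicate block, the library set as a term, and leaving out each of 27 libraries in turn. Replicate libraries differed by more than sampling noise (chi-square per degree of freedom 13.1 to 90.5), so each counted as 1 sample. Uniqueness of 50-base windows and motifs were read from RefSeq R64 with Python 3.11.15 and Biopython 1.88. In counts simulated for the 42 °C against 37 °C comparison over 5973 genes, the fit called 69 of 100 genes changed by 1.5 log2 units, 90 of 98 changed by 3, and 7 of 5775 unchanged ones. The simulation changed 200 genes, as many up as down, and drew counts from the fitted spread. Far more genes were called in the data, so these rates need not hold there.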

Additional observations from a re-analysis of the deposited data

Results flagged for a closer look

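Differences between groups are listed here because the interaction term in edgeR's quasi-likelihood fit passed an adjusted p under 0.05 with an absolute log2 difference of at least 1. Each value is the 42 °C over 37 °C log2 fold change after 30 min in MSN2 MSN4 deleted cells minus the same quantity in the other strain or at 10 min.

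Against wild type 336 genes had a higher and 380 a lower difference. The largest higher ones among well-expressed genes were MEP2 (3.97), an ammonium transporter gene, RAD27 (2.75), the flap endonuclease gene, DSE1 (2.66), a daughter cell wall gene, RPC31 (2.54), a polymerase III subunit gene, RCN1 (2.53), a calcineurin regulator gene, and HXT1 (2.53), a low-affinity glucose transporter gene. The call of RAD27 was lost without the third 42 °C library of deleted cells (2.01), and that of HXT1 without the first 42 °C (1.95) or the first 37 °C library (2.06) of deleted cells or the third 42 °C (2.33) or 37 °C library (2.10) of wild type. The largest lower ones were RGI1 (-5.51), HXT5 (-5.28), TKL2 (-5.23), a transketolase gene, CTT1 (-5.23), PGM2 (-5.06) and ALD3 (-5.05), an aldehyde dehydrogenase gene. TKL2 stood at 11.1, 7.89 and 10.7 CPM at 42 °C, against 8.20, 6.60 and 9.42 CPM at 37 °C in deleted cells, and at 105.8, 648.9 and 767.8 CPM at 42 °C, against 4.54, 12.9 and 15.99 CPM at 37 °C in wild type. Its first wild-type library at 42 °C was thus well below the other two.

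Against double loss 727 genes had a higher and 954 a lower difference. The largest higher ones were ULI1 (7.24), SSA4 (7.11), ATG41 (6.38), HSP42 (6.07), RRT12 (5.57) and IRA2 (5.08). The largest lower ones were RSB1 (-5.50), a sphingoid base transporter gene, RPL8B (-5.37), ENA1 (-5.23), a sodium pump gene, RPS22A (-5.20), RPL24A (-5.18) and RPL2A (-5.13). ENA1 has near-identical neighbours over 88.5% of its 50-base windows, so its counts are uncertain.

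Against 10 min 473 genes had a higher and 985 a lower difference. The largest higher ones were SSA4 (7), RRT12 (4.94), LST8 (4.85), ARO5 (4.85), HSP42 (4.66) and YMR244W (4.54). The largest lower ones were DBP3 (-7.28), PUF6 (-7.12), RKI1 (-6.74), a pentose phosphate pathway gene, UTP14 (-6.48), RPS8B (-6.33) and AAH1 (-6.13), an adenine deaminase gene. DBP3, a helicase gene of ribosome assembly, stood at 1.73, 2.45 and 1.82 CPM at 42 °C, against 21.98, 19.3 and 12.1 CPM at 37 °C after 30 min, and at 8.35, 14.8 and 12.9 CPM at 42 °C, against 0.592, 0.342 and 1.01 CPM at 37 °C after 10 min.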

How the results depend on the processing

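No named call changed sign under any alternative run, and neither did the list shares that were rerun. The signs of other called genes were not checked. The counts of the 42 °C over 37 °C comparison were 1243 to 1406 higher and 1083 to 1237 lower when 1 library was left out. The difference from wild type was lower for 588 genes with the compared libraries alone, higher for 156 and lower for 251 at an adjusted p under 0.01, and higher for 192 to 377 and lower for 317 to 414 with 1 library left out. The difference from double loss was higher for 384 genes with library totals, and for 746 to 835 with 1 library left out (lower for 775 to 935). The difference from 10 min, higher for 473 genes, was higher for 286 with library totals, 757 without a low-count filter, 731 with DESeq2 and 542 to 930 with 1 library left out (lower for 724 to 855). At 37 °C against 25 °C 315 genes were lower with library totals, and leaving out 1 library gave 382 to 487 higher and 393 to 440 lower; at 42 °C against 25 °C it gave 1648 to 1708 higher and 1294 to 1318 lower. Within library sets, the share difference was 11.3 percentage points for core chaperones and 4.06 for other heat shock genes in the first set, and 2.05 for other heat shock genes, 0.191 for general stress genes and -5.05 for ribosomal proteins in the third. Of 352 named results, calls were lost for 12 with RLE size factors, 29 with library totals, 11 with DESeq2, 7 without the filter, 2 with the compared libraries alone, 23 at an adjusted p under 0.01 and 28 without both libraries farthest from their groups (ergosterol lower for 3, phosphate lower for 4 and mRNA decay lower for 5 genes), an alternative chosen after seeing the data, and 84 times over the fits with 1 library left out; the cause was not tested, other than that fits with libraries left out held fewer samples.

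With the replicate number as a block, 1288 genes were higher and 1261 lower at 42 °C than at 37 °C, the differences were 350 higher and 408 lower against wild type, 713 and 968 against double loss and 472 and 986 against 10 min, and against 25 °C the counts were 488 and 464 at 37 °C and 1587 and 1412 at 42 °C. All 352 named results kept their side of the threshold under the block. Same-numbered 42 °C and 37 °C libraries correlated at -0.219, 0.409 and -0.608 in their deviations from the group means. Libraries of the same set correlated at 0.205, 0.612 and 0.698. Deviations within a group of 3 libraries depend on each other, so these correlations cannot settle whether number or set pairs the samples. With the set as a term every named result kept its side of the threshold too. That term was fitted separately in strains with and without the deletions, which share no set. It therefore cannot correct a difference between them. Depth limits genes near 3 counts, and counting intervals cover counting error only. With 3 libraries a group, an exact permutation p cannot go below 0.1. That permutation took the groups as unpaired and did not use the library sets.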
